A study of Mus musculus with 32 samples.

Results

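Cultures of marrow-derived stromal cells under osteogenic conditions (BMSC-OBs) hold dividing progenitors beside cells that have largely left the cell cycle. Genes that act on that decision, 10 of the 31053 in the count tables, were followed here by gene symbol: Cdkn1a, Cdkn2a, Cdkn2b, Trp53, Mdm2, Gdf15, Ccng1, Hmga1, Hmga2 and Ccnd1. The cells came from femur marrow of 77 Diversity Outbred (DO) mice of both sexes, an outbred population from The Jackson Laboratory in which each animal carries a mosaic of founder genomes, and their ages were not given in the sources used here. All cultures were grown to confluence and then differentiated with ascorbic acid, β-glycerophosphate and dexamethasone, so there was no untreated or control group. Cells of 4 to 5 mice were loaded together as 1 pool, 16 pools in all, and each pool was sequenced in 2 runs of the same droplets. The values below come from the first run, the pool was the replicate, and cells were not assigned to single mice.

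As background, Cdkn1a encodes p21, an inhibitor of cyclin-dependent kinases that p53 (Trp53) switches on. Mdm2 encodes the ubiquitin ligase that marks p53 for degradation and is itself a p53 target, as are Ccng1, which encodes cyclin G1, and Gdf15, which encodes a secreted stress cytokine. Cdkn2a and Cdkn2b are the neighbouring Ink4 genes, whose products p16 and p15 block the kinases that cyclin D1 (Ccnd1) activates, and an alternative reading frame of Cdkn2a makes p19Arf, which inhibits Mdm2. Hmga1 and Hmga2 encode chromatin proteins that bind AT-rich DNA, are abundant in embryonic and dividing progenitor cells, and are restrained by let-7 microRNAs. In cultured marrow stromal cells the Ink4 products and p21 are known as brakes on expansion, while Hmga2 is known for lowering the Ink4 genes in stem cells.

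The annotation of GRCm38, the build of the deposited counts, places Cdkn1a on chr17:29090976-29100727 (plus strand), Trp53 on chr11:69580359-69591873 (plus strand), Mdm2 on chr10:117688875-117710758 (minus strand) and Ccng1 on chr11:40748552-40755311 (minus strand). Cdkn2a (chr4:89274471-89294653) and Cdkn2b (chr4:89306299-89311039) both lie on the minus strand, with 11645 bases between them. Gdf15 is on chr8:70629393-70632456, Hmga2 on chr10:120361275-120476469 and Ccnd1 on chr7:144929931-144939925, all on the minus strand, and Hmga1 is on chr17:27556497-27563674 on the plus strand. Reads at the 3′ end limit what some of these counts mean. The 2 coding transcripts of Cdkn2a, 852 and 895 bases long, share a stretch of 578 bases, so p16 and p19Arf messages cannot be told apart. Of 410 windows of 91 bases at the end of the Hmga1 transcript, 319 (77.8%) also occur in Hmga1b (chr11:120762794-120764419), so the Hmga1 level is uncertain, while no such window of the other members occurs in another gene.

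Promoters from RefSeq (GRCm38.p6) were at hand for 9 of the 10 members, 13 promoters in all, each running from 250 bases before to 50 after a start. A full p53 binding element holds a pair of 10-letter units. The p53 motif searched here, on both strands, was the consensus of 1 such unit, and it occurred in 4 of the 13, against 8.36% of 32851 promoters of the same length. The 200 bases before the start are shown for those 4, which belong to Trp53 itself and 3 of the genes p53 is known to switch on. The other promoter of Cdkn1a and the promoters of Gdf15, also a p53 target, held no match and are not shown. Capitals mark the matches to the motif, 2 for Cdkn1a and 1 for each of the others.
Cdkn1a, chr17:29090779-29090978, plus strand: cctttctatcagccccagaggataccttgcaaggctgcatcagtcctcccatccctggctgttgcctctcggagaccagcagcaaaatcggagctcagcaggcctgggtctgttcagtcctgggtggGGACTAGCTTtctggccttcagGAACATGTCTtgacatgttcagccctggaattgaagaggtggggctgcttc
Mdm2, chr10:117710759-117710958, minus strand: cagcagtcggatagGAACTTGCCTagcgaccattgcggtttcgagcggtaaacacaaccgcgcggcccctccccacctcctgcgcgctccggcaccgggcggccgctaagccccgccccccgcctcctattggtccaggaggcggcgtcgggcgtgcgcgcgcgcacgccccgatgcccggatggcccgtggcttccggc
Ccng1, chr11:40755287-40755486, minus strand: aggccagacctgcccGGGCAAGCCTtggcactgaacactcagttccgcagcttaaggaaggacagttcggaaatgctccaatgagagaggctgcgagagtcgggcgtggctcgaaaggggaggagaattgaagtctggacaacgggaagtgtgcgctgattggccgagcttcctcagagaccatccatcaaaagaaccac
Trp53, chr11:69580159-69580358, plus strand: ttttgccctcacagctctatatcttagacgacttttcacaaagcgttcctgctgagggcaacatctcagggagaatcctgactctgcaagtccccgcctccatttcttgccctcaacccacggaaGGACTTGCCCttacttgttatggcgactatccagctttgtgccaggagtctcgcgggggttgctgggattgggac
A match describes these letters in this window only.

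Of 107853 barcodes, 88909 passed the cell filters and 72779 of these held at least 2000 UMIs. After 692 cells with both Xist and Y-linked UMIs were removed as doublets, 44758 cells fell in a marker gate and 27329 in none. The gates were named after the populations that the markers define: late mesenchymal progenitors (LMP-like, 8636 cells), marrow adipogenic lineage progenitors (MALP-like, 7811), osteoblast progenitors (OBP-like, 7026), osteoblasts 1 and 2 (OB1-like, 4967; OB2-like, 4466), osteocytes (Ocy-like, 3335) and macrophages (macrophage-like, 5026). No member was a marker of any gate. Depth differed between gates, with a median of 19368.5 UMIs per cell in LMP-like and 5462 in macrophage-like cells, and between pools, whose totals ran from 53990642 to 100777353 UMIs. Macrophage-like cells carried a median of 15.4 collagen UMIs per 10,000, against 93.3 in LMP-like and 596 in OBP-like cells. Of 106313 barcode sequences, 1521 occurred in more than 1 pool.

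Cells with at least 2 UMIs of Mki67 and Top2a together, both made in dividing cells, were called cycling, and cells with none non-cycling. By this rule 1214 LMP-like cells (14.1%), 354 MALP-like (4.5%), 343 OBP-like (4.9%), 283 OB1-like (5.7%) and 273 OB2-like cells (6.1%) were cycling. So were 39 Ocy-like (1.2%), 645 macrophage-like (12.8%) and 465 granulocyte-like cells (35.0%). Cycling OB1-like, OB2-like and granulocyte-like cells were not tested against non-cycling ones. The calls carried other cell-cycle genes with them: Cdk1 stood at 2.42 UMIs per 10,000 in cycling and 0.128 in non-cycling LMP-like cells, and Birc5 at 3.03 and 0.0695. Pools 1 and 2 stood apart, with 24.2% and 39.3% of LMP-like cells cycling against 7.7% to 12.9% in the other 14. They also weighed on the OB1-like share: of the 283 cycling OB1-like cells, 54 came from pool 1 and 79 from pool 2. No order of the osteoblast gates is read from shares taken over all cells.

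Among the 6 mesenchymal gates Cdkn1a was highest in the Ocy-like cells, with LMP-like and MALP-like cells at the low end. Its level, in UMIs per 10,000 over the pools, had a median of 10.8 in Ocy-like sums (7.77 in pool 2 to 15.4 in pool 6), 7.34 in OBP-like (4.69 to 10.8), 7.26 in OB2-like (5.79 to 9.33) and 6.06 in OB1-like sums (4.40 to 7.55). Macrophage-like sums had a median of 5.92 (4.04 to 7.33), MALP-like of 5.37 (2.80 to 6.23) and LMP-like of 5.01 (2.51 in pool 1 to 6.42 in pool 6). No Ocy-like sum was as low as any LMP-like sum, and in UMIs per 10,000 the Ocy-like level exceeded the OBP-like level in 16 of 16 pools. Neighbours in this order whose mean difference within pools was smaller than its SD, here called not differing beyond their spread, were OBP-like and OB2-like, OB1-like and macrophage-like, and MALP-like and LMP-like. This rule describes the spread and is no test, so the tests below may still call such a pair. Among the other leukocyte gates, granulocyte-like sums held a median of 1.29 (11 pools) and osteoclast-like sums 3.80 (12 pools).

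The Ink4 genes followed another order, with LMP-like cells at the top. Cdkn2a had a median of 1.94 UMIs per 10,000 in LMP-like sums (0.757 in pool 2 to 2.55 in pool 11), 1.22 in Ocy-like (0.702 to 2.54), 0.890 in OBP-like (0.296 to 1.67), 0.692 in MALP-like (0.285 to 1.54), 0.601 in OB1-like and 0.600 in OB2-like sums. LMP-like and Ocy-like sums overlapped and did not differ beyond their spread, while Ocy-like sums lay above OBP-like ones in 14 of 16 pools. Macrophage-like sums held 0.120 (0.0399 to 0.315), below every LMP-like sum. Cdkn2b had a median of 0.836 in LMP-like sums (0.496 in pool 9 to 1.37 in pool 6) and of 0.204 to 0.270 in the other mesenchymal gates. The LMP-like range of Cdkn2b was clear of the MALP-like, OBP-like, OB1-like and Ocy-like ranges, whose highest sum was 0.410, and overlapped with that of OB2-like sums, which reached 0.737 in pool 18. In macrophage-like sums Cdkn2b stood at 0.0561.

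Trp53 and its partners did not share one order. Among the mesenchymal and macrophage-like gates Trp53 was highest in LMP-like sums (median 0.726 UMIs per 10,000, 0.397 in pool 3 to 1.14 in pool 1) and MALP-like sums (0.683, 0.393 to 0.915), which did not differ beyond their spread. It stood at 0.340 in OBP-like sums and between 0.194 and 0.230 in OB1-like, OB2-like and Ocy-like sums. Ccng1 had the same pair at the top, with 1.85 in LMP-like (1.18 in pool 3 to 2.90 in pool 6) and 1.82 in MALP-like sums (0.976 to 3.20), and 0.747 to 1.03 in the osteoblast and osteocyte gates. For Mdm2 the mesenchymal medians lay close together, from 1.01 in OBP-like to 1.32 in LMP-like sums (0.725 in pool 1 to 2.26 in pool 6). Macrophage-like sums stood above them at 2.80 (1.75 to 3.84), higher than LMP-like in 16 of 16 pools. Gdf15 was highest in macrophage-like sums, with a median of 5.10 (2.14 in pool 2 to 12.2 in pool 8), above every mesenchymal sum. Within the mesenchymal gates Gdf15 was highest in OB2-like sums (0.850, 0.407 to 1.27), followed by LMP-like sums (0.605, 0.305 to 1.05), and the remaining gates held 0.346 to 0.458.

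Among the mesenchymal and macrophage-like gates Hmga2 was highest in LMP-like cells, with a wide spread between pools. Its median in LMP-like sums was 0.404 UMIs per 10,000, from 0.121 in pool 3 to 1.36 in pool 18, with 1.35 in pool 1. Macrophage-like sums held 0.256 (0.0744 to 0.546), MALP-like 0.0938 (0.0716 to 0.344), OB2-like 0.0573 (0.0192 to 0.648, the highest again in pool 18), OBP-like 0.0294 (0.0157 to 0.132), and OB1-like and Ocy-like sums 0.0195 each. The LMP-like and macrophage-like ranges overlapped, and these gates did not differ beyond their spread. In the glial-like gate, filled in 1 pool only with 36 cells, Hmga2 stood at 0.926 and Ccnd1 at 7.31. Hmga1 was near the limit of detection, with a median of 0.0260 in LMP-like sums (0.0037 in pool 3 to 0.152 in pool 2), 0.0636 in macrophage-like and at most 0.0073 in the other mesenchymal gates. No pair of neighbouring gates differed by more than its SD for Hmga1, though LMP-like lay above MALP-like sums in 16 of 16 pools, and its copy Hmga1b stood at 0.0495 in LMP-like sums.

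Ccnd1 was highest in LMP-like sums and lower in every other osteogenic gate. The median was 7.13 UMIs per 10,000 in LMP-like sums (3.83 in pool 3 to 10.3 in pool 18), 3.73 in OBP-like (2.74 to 5.75), 1.69 in OB1-like (0.571 to 4.36), 0.767 in OB2-like (0.275 to 2.74) and 0.550 in Ocy-like sums (0.189 to 1.63). LMP-like exceeded OBP-like, and OBP-like exceeded OB1-like, in 16 of 16 pools each. OB2-like and Ocy-like sums did not differ beyond their spread (mean difference 0.401, SD 0.580, 14 pools) and were not tested against each other. In the paper's trajectories OB2 is an end point apart from the path to Ocy. MALP-like sums held 1.10 (0.675 to 1.81) and macrophage-like sums 0.804, both below every LMP-like sum.

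**Figure D1:**
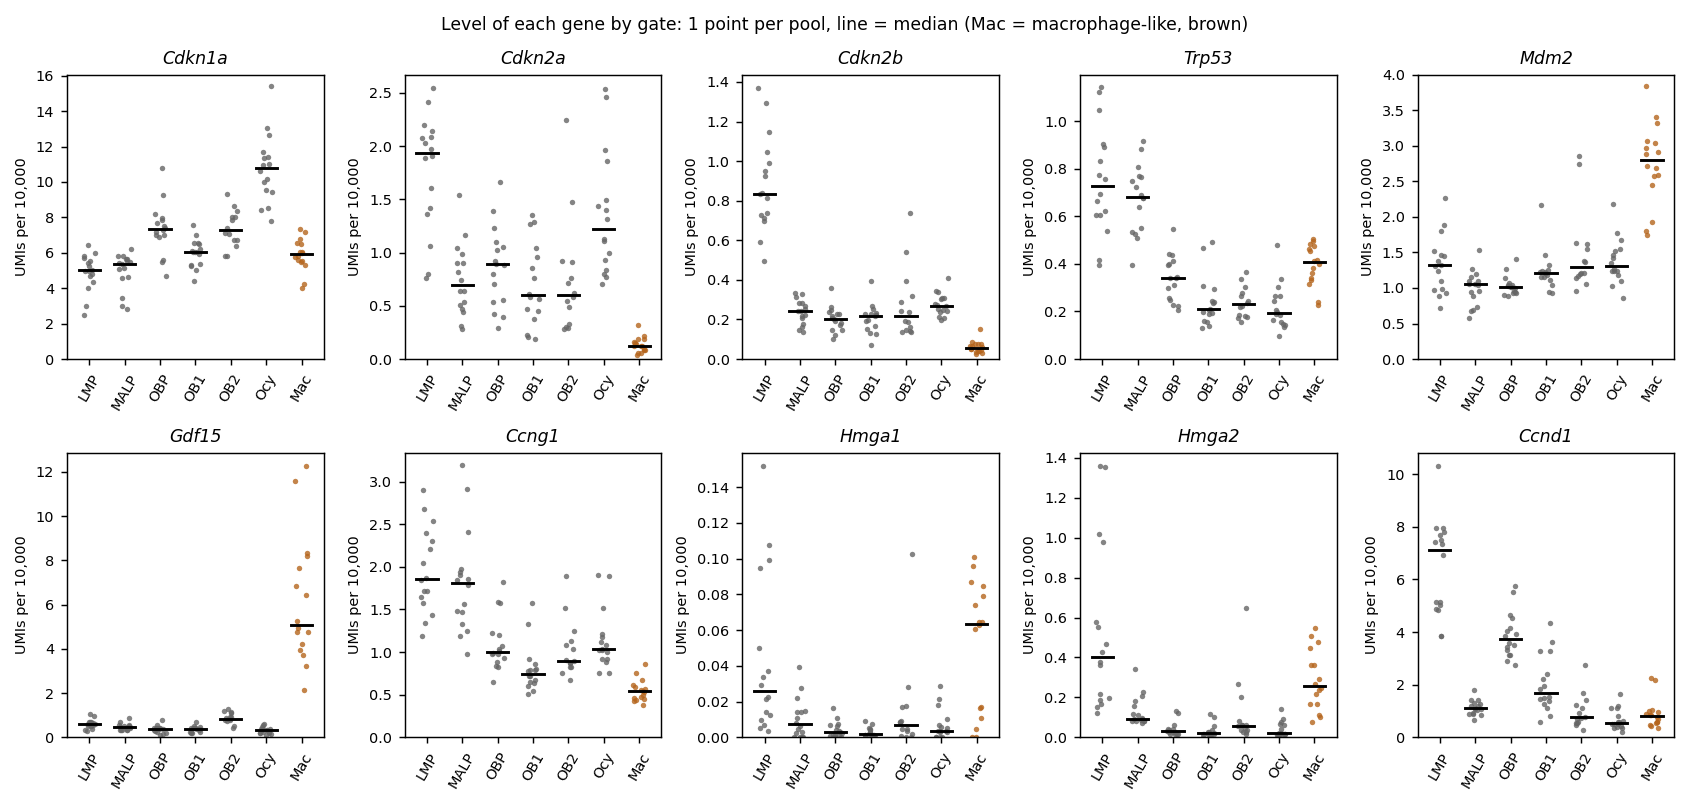
UMIs per 10,000 (vertical axis) of each of the 10 genes in the summed cells of each pool (points) by marker gate (horizontal axis), with the median as a bar. Cdkn1a is highest in the Ocy-like gate (median 10.8), Cdkn2b, Hmga2 and Ccnd1 have their highest mesenchymal medians in the LMP-like gate (0.836, 0.404 and 7.13), and Gdf15 stands at 5.10 in the macrophage-like gate.

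Summed counts per pool were then compared between gates by the quasi-likelihood test of edgeR, blocked by pool, and p-values were adjusted by Benjamini-Hochberg over all genes tested. These fold changes are on the log2 scale after TMM scaling, with their standard errors, and the number of pools beside a fold change counts TMM-scaled levels. Between gates about as many genes passed as failed in the closest pair, and most passed in the others, so a call by itself sets no member apart. A member too low in counts was not tested: Hmga1 in most fits, Hmga2 in the Ocy-like comparison and cycling OBP-like cells, and Cdkn2a and Cdkn2b in cycling macrophage-like cells.

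From LMP-like to OBP-like cells, the osteogenic step from late mesenchymal to osteoblast progenitors, Cdkn1a rose and the Ink4 genes, Trp53, Ccng1, Gdf15, Hmga2 and Ccnd1 fell. Of the 9 members tested 8 passed, 1 higher and 7 lower, against 77.2% of all genes, 38.2% higher and 39.0% lower. Cdkn1a was higher by 0.93 ± 0.05 (adjusted p = 1.79e-13, 16 of 16 pools), and Hmga2 was lower with a log2 fold change of -3.24 ± 0.14 (adjusted p = 1.36e-15, 16 of 16 pools), well over the median size of 0.380 for all genes. Cdkn2b stood at -1.81 ± 0.08, Trp53 at -0.80 ± 0.06, Cdkn2a at -0.76 ± 0.09 (15 of 16 pools), Ccng1 at -0.50 ± 0.05, Gdf15 at -0.47 ± 0.08 and Ccnd1 at -0.38 ± 0.08 (14 of 16 pools). Mdm2 did not pass (0.01 ± 0.07, adjusted p = 0.874), and with UMI totals in place of TMM it turned to -0.32 (adjusted p = 0.000176). The same scaling put Cdkn1a at 0.60, Ccnd1 at -0.71, Gdf15 at -0.80, Ccng1 at -0.84 and Cdkn2a at -1.09, all still past the threshold. That scaling put the median of all genes at -0.34, against -0.0048 by TMM, and moved the split of calls from 4541 higher and 4642 lower to 2365 and 7656.

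From LMP-like to MALP-like cells, the adipogenic step, all 9 members tested were lower, against 72.2% of all genes called, 36.2% higher and 36.0% lower. The steepest falls were those of Ccnd1 (-2.73 ± 0.08, adjusted p = 1.47e-17), Hmga2 (-2.15 ± 0.18), Cdkn2b (-2.12 ± 0.10) and Cdkn2a (-1.54 ± 0.11), each in 16 of 16 pools. Mdm2 (-0.63 ± 0.07), Gdf15 (-0.56 ± 0.12), Ccng1 (-0.37 ± 0.06) and Trp53 (-0.36 ± 0.06) fell less. Cdkn1a was lower by TMM (-0.21 ± 0.06, adjusted p = 0.00335, 12 of 16 pools) and at 0.02 with UMI totals (adjusted p = 0.761), a scaling that put the median of all genes at 0.24 and moved the split from 4264 higher and 4246 lower to 6668 and 2428. With UMI totals Trp53 and Ccng1 no longer passed, both at -0.13.

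Ccnd1 was lower in OB1-like than in OBP-like cells, and lower in both OB2-like and Ocy-like than in OB1-like cells. Trp53 fell from OBP-like to OB1-like and from OB1-like to Ocy-like cells. From OBP-like to OB1-like cells 6 of 9 members passed, 3 higher and 3 lower, against 55.1% of all genes, 28.6% higher and 26.5% lower: Mdm2 rose by 0.45 ± 0.05 in 16 of 16 pools, Cdkn2b by 0.25 ± 0.07 and Gdf15 by 0.30 ± 0.12 (adjusted p = 0.0432), while Ccnd1 fell (-0.88 ± 0.12, 16 of 16 pools) with Trp53 (-0.34 ± 0.07) and Ccng1 (-0.26 ± 0.08). The Gdf15 call was lost when any one of pools 1, 2, 4, 6, 9, 10, 11, 13, 14, 17 or 18 was left out (0.24 to 0.37). Without pool 7 the Cdkn1a difference, -0.08 ± 0.05 over all pools, reached the threshold at -0.13. With UMI totals the median of all genes was -0.18, with 1571 genes higher and 5306 lower in place of 3129 and 2894, Cdkn2b (0.05) and Gdf15 (0.10) did not pass, and Cdkn1a (-0.28), Cdkn2a (-0.37) and Hmga2 (-0.36) did.

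OB2-like cells differed from OB1-like cells over 14 pools in 3 of 9 members, 2 higher and 1 lower, against 59.7% of all genes, 30.1% higher and 29.6% lower. Gdf15 was higher by 1.03 ± 0.12 (13 of 14 pools), and Ccnd1 was lower (-1.08 ± 0.12, 14 of 14 pools). Hmga2, the other member counted as higher, stood at 1.35 ± 0.24, but its OB1-like sums held only 0 to 108 UMIs per pool, it was too low to be tested in Ocy-like against OB1-like cells, and no difference is read from it. Cdkn1a at 0.12 ± 0.06 missed the threshold (adjusted p = 0.0661) and passed without pool 12 or 18 (0.10 to 0.17 over all omissions), as did Ccng1 (0.15 ± 0.09) without pool 7 at 0.20. With UMI totals Cdkn1a (0.26), Mdm2 (0.20) and Ccng1 (0.28) also passed, where the median of all genes was 0.12 and the split 4218 and 2231 in place of 3249 and 3194. Dynap, no member but part of the list of Hmga-linked genes, which was chosen with earlier results of these data known, was lower with Hmga2 in MALP-like than in LMP-like cells (-3.65). From OBP-like to OB1-like cells Dynap fell (-2.41) while Hmga2 stood at -0.16 ± 0.14 (adjusted p = 0.348). Of 10 genes of that list tested in MALP-like against LMP-like cells, 6 were higher and 2 lower, Dynap among the lower, beside 36.2% and 36.0% of all genes.

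From OB1-like to Ocy-like cells Cdkn1a, Cdkn2a, Cdkn2b and Ccng1 rose, and Ccnd1, Gdf15 and Trp53 fell. Of 8 members tested 7 passed, 4 higher and 3 lower, against 48.3% of all genes, 23.6% higher and 24.8% lower. Cdkn1a rose by 0.67 ± 0.05 (adjusted p = 1.03e-11, 16 of 16 pools), Cdkn2a by 0.88 ± 0.14 (15 of 16 pools), Ccng1 by 0.33 ± 0.06 and Cdkn2b by 0.26 ± 0.09 (11 of 16 pools). Ccnd1 was lower with a log2 fold change of -1.73 ± 0.10 (16 of 16 pools), Gdf15 with -0.38 ± 0.13 and Trp53 with -0.29 ± 0.07. Mdm2 stood at -0.02 ± 0.07. Of 14 further CDK inhibitors, G1 cyclins, kinases and pocket proteins tested, 2 rose and 6 fell. With UMI totals the median of all genes was 0.16, with 4511 higher and 1361 lower in place of 2297 and 2417, and Gdf15 (-0.23) and Trp53 (-0.14) did not pass.

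Macrophage-like cells, the main leukocyte population, differed from LMP-like cells in 8 of 10 members, 3 higher and 5 lower, against 84.3% of all genes, 39.2% higher and 45.2% lower. Gdf15 was higher by 3.41 ± 0.14 (adjusted p = 1.57e-16), Mdm2 by 1.24 ± 0.07 and Cdkn1a by 0.44 ± 0.06, each in 16 of 16 pools. Cdkn2b (-3.59 ± 0.12), Cdkn2a (-3.55 ± 0.14), Ccnd1 (-2.81 ± 0.12), Ccng1 (-1.64 ± 0.07) and Trp53 (-0.74 ± 0.08) were lower in 16 of 16 pools. All macrophage-like cells together held 216 UMIs of Cdkn2b and 423 of Cdkn2a, so the size of both falls rests on few counts. Hmga2 at -0.59 ± 0.28 just missed the threshold (adjusted p = 0.058), and left out singly, pool 3, 9, 11 or 14 brought it past (-0.77 to -0.37 over all omissions). Over the other processing settings its adjusted p ran from 5.53e-05 to 0.236. Hmga1, at 0.60 ± 0.36, did not pass with all pools and did without pools 1 and 2, at 0.94. The collagen level given above for macrophage-like cells stands beside these values, and its part in them was not tested.

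**Figure D2:**
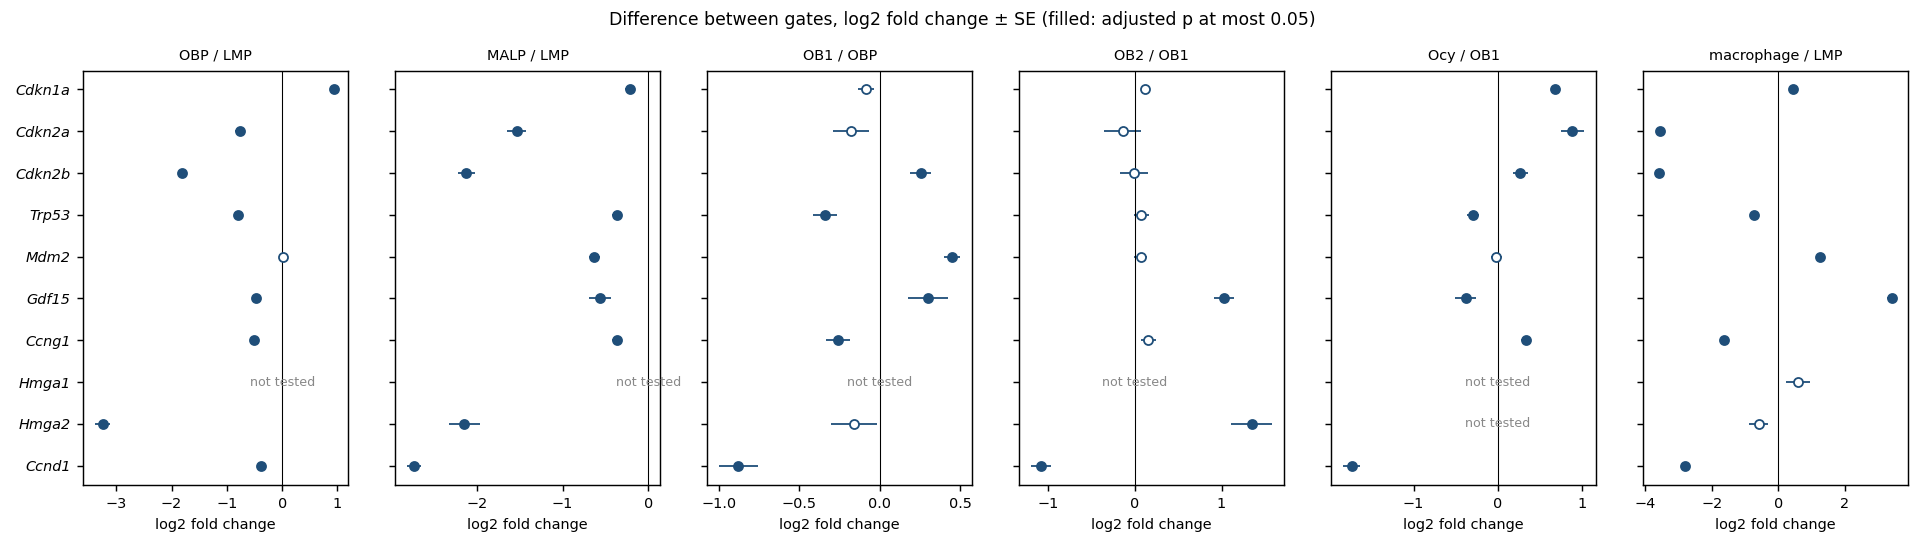
Log2 fold change with its standard error (horizontal axis) of each member (rows) in the 6 gate comparisons (panels), with filled points where the adjusted p was at most 0.05. Cdkn1a lies to the right in OBP-like against LMP-like (0.93) and in Ocy-like against OB1-like (0.67), whereas Ccnd1 lies to the left in all 6 panels, from -0.38 to -2.81.

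Within one gate, cycling and non-cycling LMP-like cells were compared next, pool by pool. Cycling cells were deeper, with a median of 24402.5 UMIs against 18191, so levels are given per 10,000 UMIs. The Ink4 genes were lower in the cycling cells of nearly every pool. Cdkn2a had a median of 0.974 UMIs per 10,000 in cycling sums (0.307 to 1.69) and 2.22 in non-cycling sums (0.890 to 2.71). Cdkn2b had 0.447 (0.252 to 0.709) and 0.908 (0.576 to 1.53). The ranges overlapped between pools. Within pools Cdkn2b was lower in cycling cells in 16 of 16 and Cdkn2a in 15 of 16, the exception being pool 13 with 1.19 in cycling and 1.14 in non-cycling cells. For Ccng1 the medians were 1.52 and 1.99, for Hmga2 0.230 (0.0477 to 1.10) and 0.437 (0.115 to 1.43), for Cdkn1a 4.51 (2.37 to 6.07) and 5.23 (2.70 to 6.77), and for Ccnd1 5.83 (3.44 to 7.12) and 7.28 (3.75 to 10.7). Trp53 went the other way, with 0.859 (0.351 to 1.42) in cycling and 0.728 (0.385 to 1.03) in non-cycling sums.

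By edgeR's test 8 of 9 members differed, 1 higher and 7 lower, against 44.4% of all genes called, 23.2% higher and 21.2% lower. The differences were -1.09 ± 0.09 for Cdkn2a (adjusted p = 4.19e-11), -1.03 ± 0.09 for Cdkn2b (adjusted p = 8.92e-11), -0.64 ± 0.13 for Hmga2 (adjusted p = 0.000138, 14 of 16 pools) and -0.41 ± 0.05 for Ccng1 (16 of 16 pools). Smaller falls were those of Mdm2 (-0.23 ± 0.08, 12 of 16 pools), Cdkn1a (-0.21 ± 0.05, 14 of 16 pools) and Ccnd1 (-0.20 ± 0.05, 14 of 16 pools), and the Ccnd1 fall shrank to -0.05 and was lost when 1 UMI of Mki67 or Top2a sufficed for a cycling call. Trp53 rose by 0.35 ± 0.05 (adjusted p = 3.86e-06, 14 of 16 pools). Gdf15 at 0.25 ± 0.11 missed the threshold (adjusted p = 0.0705) and passed without pool 6 or pool 8, with 0.16 to 0.31 over all omissions and adjusted p from 0.0672 to 0.716 over the other settings. The share of cells with a UMI, after thinning each cell to 4000 UMIs, was 23.7% in cycling and 37.4% in non-cycling cells for Cdkn2a (61.5% and 64.0% before thinning), and 14.4% and 26.6% for Cdkn2b (45.9% and 57.5% before thinning). The thinned shares of cycling cells covered 15 of the 16 pools.

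**Figure D3:**
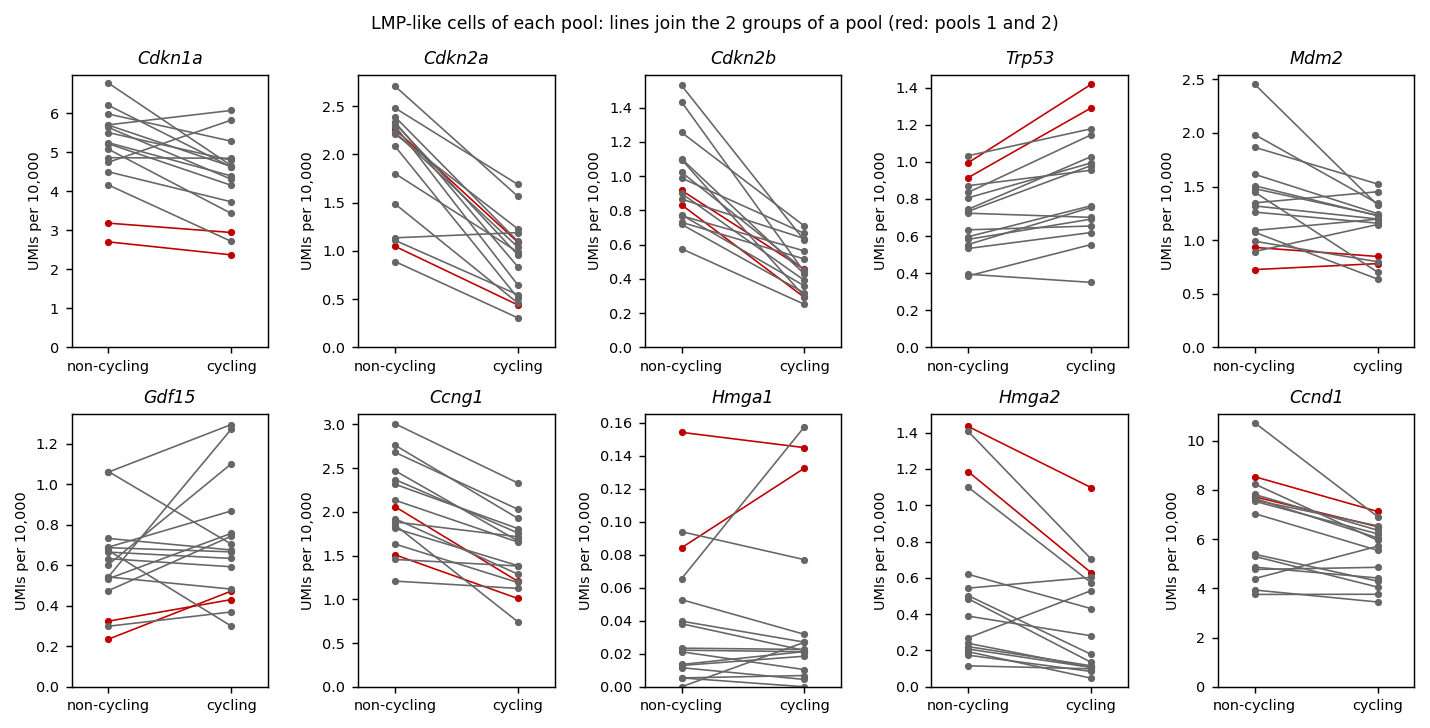
UMIs per 10,000 (vertical axis) of members in non-cycling and cycling LMP-like cells (horizontal axis), with a line for each of 16 pools and pools 1 and 2 in red. All lines for Cdkn2b (medians 0.908 to 0.447) and all but that of pool 13 for Cdkn2a (medians 2.22 to 0.974) fall from non-cycling to cycling cells, whereas 14 of 16 lines for Trp53 rise.

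In the other gates tested fewer members passed, over fewer pools. Cycling OBP-like cells, compared over 8 pools, had less Cdkn1a (-0.33 ± 0.06, medians 6.70 against 7.40 UMIs per 10,000, lower in 8 of 8 pools once scaled) and less Cdkn2a (-0.42 ± 0.10, 8 of 8 pools), with more Trp53 (0.43 ± 0.11) and Ccnd1 (0.21 ± 0.06, adjusted p = 0.0199). These were 4 of 8 members, 2 higher and 2 lower, against 18.8% of all genes, 10.2% higher and 8.61% lower. The Ccnd1 call did not outlast the removal of pool 2, 11 or 18 (0.18 to 0.27), and Cdkn2b at -0.43 ± 0.17 passed when pool 18 was left out, at -0.63. In cells thinned to 4000 UMIs, Cdkn2a (-0.25), Trp53 (0.27) and Ccnd1 (0.22) no longer passed. UMI totals gave 1211 genes higher and 457 lower in place of 961 and 809.

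Cycling MALP-like cells, over 7 pools, were marked by Ccnd1, which encodes the D-type cyclin of early G1: its median was 1.74 UMIs per 10,000 in cycling sums (1.10 to 3.58), against 1.04 in non-cycling sums, a difference of 0.99 ± 0.13 (adjusted p = 3.82e-06, 7 of 7 pools). Trp53 (0.57 ± 0.10) and Gdf15 (0.57 ± 0.16) also rose, in 6 of 7 pools each. Cdkn2b passed as lower (-0.74 ± 0.22, 7 of 7 pools), a call that rests on 46 UMIs in all cycling sums and was lost without pool 18 at -0.52. These were 4 of 9 members, 3 higher and 1 lower, against 29.0% of all genes, 16.3% higher and 12.7% lower. Single omissions added Cdkn2a without pool 10 (-0.37), Ccng1 without pool 12 (-0.31) and Hmga2 without pool 17 or 18, and Hmga2 ranged over all omissions from 0.04 to 0.93. In thinned cells the Cdkn2b (-0.52) and Gdf15 (0.45) calls were lost.

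Cycling macrophage-like cells, over 12 pools, had less Gdf15, at a median of 3.90 (1.11 to 9.25) against 6.27 UMIs per 10,000 (2.44 to 12.8). The difference was -0.70 ± 0.08 (adjusted p = 3.33e-07, 11 of 12 pools). Ccnd1 rose by 0.70 ± 0.12 (10 of 12 pools) and Trp53 by 0.34 ± 0.12 (adjusted p = 0.0428, 9 of 12 pools), and the Trp53 call was lost when pool 2, 6, 8, 9, 11 or 18 was left out (0.26 to 0.41) and in thinned cells (0.16). In all, 3 of 7 members passed, 2 higher and 1 lower, against 19.3% of all genes, 10.1% higher and 9.2% lower. UMI totals gave 814 genes higher and 488 lower in place of 722 and 661. Trp53 was thus higher in the cycling cells of all 4 gates tested, except that the OBP-like and macrophage-like calls were lost in thinned cells and the latter without any of the pools just named.

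**Figure D4:**
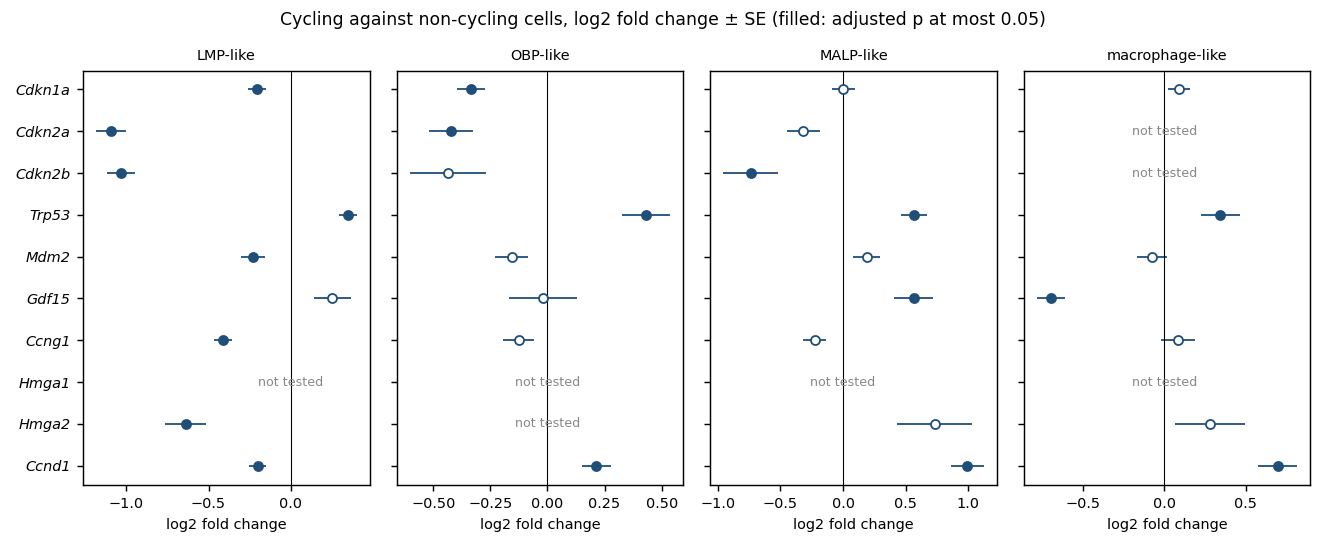
Log2 fold change of cycling against non-cycling cells with its standard error (horizontal axis; each panel has its own scale) for each member (rows) in 4 gates, with filled points where the adjusted p was at most 0.05. Trp53 lies to the right in all 4 panels (0.34 to 0.57), and Ccnd1 lies to the left in LMP-like (-0.20) and to the right in the other gates (0.21 to 0.99).

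Whether the cycling difference itself differed between gates was tested by an interaction over the pools with enough cells in all 4 groups. Against LMP-like cells, 2 of 10 members differed in OBP-like cells over 8 pools, both higher, against 1.16% of all genes, 0.74% higher and 0.417% lower. In MALP-like cells, over 7 pools, 2 of 9 differed, both higher, against 2.11% of all genes, 1.1% higher and 1.01% lower. In macrophage-like cells, over 12 pools, 3 of 10 differed, 2 higher and 1 lower, against 4.52% of all genes, 0.357% higher and 4.17% lower. Genes too low for the cycling test within a gate could enter these fits through their LMP-like counts. Within OBP-like cells 8 members were testable. Within macrophage-like cells 7 were, among 7183 genes in place of 9815. The shares of members and of all genes therefore mix genes testable and not testable within the gate. Of the 3 members called in macrophage-like cells, Cdkn2b had 44 UMIs in the cycling cells and entered only through its LMP-like counts, so no difference between the gates is read from it. Ccnd1 was in each set, with a cycling effect higher than in LMP-like cells by 0.55 ± 0.14 in OBP-like (adjusted p = 0.0451), 1.23 ± 0.17 in MALP-like (adjusted p = 0.000105) and 0.85 ± 0.22 in macrophage-like cells (adjusted p = 0.0168). The first of these was lost without pool 2, 4, 10, 11, 14 or 18 (0.45 to 0.66), whereas the MALP-like value stayed past the threshold under every omission (1.09 to 1.45) and was lost at a stricter gate margin (0.95). Over the other settings the adjusted p of the MALP-like value ran from 5.95e-20 to 0.0808. The macrophage-like Ccnd1 call ended without the block and with cycling from 1 UMI. The fall of Cdkn2a was smaller than in LMP-like cells by 0.74 ± 0.17 in OBP-like and by 0.81 ± 0.20 in MALP-like cells, values that lost their calls without pool 2, 9, 17 or 18 (0.65 to 0.82) and without pool 9, 10 or 18 (0.73 to 0.99). Both Cdkn2a calls also ended without the block (0.72 and 0.77), in thinned cells (0.88 and 0.86), at a stricter gate margin (0.45 and 0.78) and with cycling from 1 UMI (0.36 and 0.40). The OBP-like Cdkn2a call ended in the second run (0.71) and without pools 1 and 2 (0.65) too, as the OBP-like Ccnd1 call did in these 6 settings (0.14 to 0.58), and the MALP-like Cdkn2a call without a gate margin (0.56). In macrophage-like cells Gdf15 differed by -0.95 ± 0.26, lost without pool 2, 6, 7, 11, 12 or 14 (-1.02 to -0.69). This Gdf15 call also ended without the block, with cycling from 1 UMI, with DESeq2, in thinned cells, with doublets kept, with UMI totals and without pools 1 and 2. Ccng1 (0.43 ± 0.13, adjusted p = 0.0534) passed there when pool 2, 6, 7, 8, 10, 11, 12 or 14 was left out (0.36 to 0.67). With UMI totals the splits were 164 higher and 40 lower in place of 87 and 49 for OBP-like, and 142 and 126 in place of 35 and 409 for macrophage-like cells.

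The share of cells with at least 1 UMI was also taken after thinning to 4000 UMIs per cell. Cdkn1a was seen in 93.2% of Ocy-like, 87.9% of OBP-like, 74.4% of LMP-like and 64.3% of MALP-like cells (98.5%, 97.5%, 93.5% and 79.2% before thinning), as means over pools. The shares put LMP-like above MALP-like cells, whereas the median levels were 5.01 and 5.37 UMIs per 10,000, so no order of these gates is read from them. Cdkn2a was seen in 35.4% of LMP-like and 29.5% of Ocy-like cells, and Cdkn2b in 24.3% of LMP-like cells (63.6%, 46.9% and 55.9% before thinning). In macrophage-like cells, at a median of 5462 UMIs against 19368.5 in LMP-like cells, the thinned shares were 3.88% for Cdkn2a and 2.31% for Cdkn2b (5.64% and 3.54% before thinning). Hmga2 was found in 11.8% of LMP-like cells, from 3.55% to 27.4% of cells between pools, against 4.22% of MALP-like and 9.19% of macrophage-like cells (27.6%, 9.33% and 11.1% before thinning). Gdf15 was found in 54.3% of macrophage-like and 16.6% of LMP-like cells (58.3% and 38.2% before thinning). Thinning kept 8145 of 8636 LMP-like and 3620 of 5026 macrophage-like cells, those with at least 4000 UMIs.

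Over the pools, members were set against each other and against the share of cycling cells within non-cycling LMP-like cells, 7 and 10 relations, each by permutation test of the log2 level. Pools 1 and 2 formed a cluster of their own, so the 14 other pools lead. There Cdkn1a and Mdm2 had r = 0.63 and rho = 0.65 (permutation p = 0.0172 and 0.0148, adjusted p = 0.0758 and 0.104), and Cdkn2a and Cdkn2b had r = 0.61 and rho = 0.33 (adjusted p = 0.0758 and 0.572). Hmga1 and Hmga2 had r = 0.50 and rho = 0.43 (adjusted p = 0.166 and 0.454). The Hmga1 counts behind this pair were small, with 0 UMIs in pool 3, 3 in pool 8 and 4 in pool 9 against 130 in pool 2. Reads of Hmga1 may also come from Hmga1b. None of the 7 relations passed after adjustment over 14 pools. The remaining pairs were Cdkn1a and Ccng1 (r = 0.24), Trp53 and Cdkn1a (-0.02), Hmga2 and Cdkn2a (0.01) and Ccnd1 and Cdkn2a (0.0012). With pools 1 and 2 these r were 0.38, -0.50, -0.08 and -0.09, none past the threshold. Over all 16 pools r was 0.80 for Cdkn1a and Mdm2 (adjusted permutation p = 0.00021; 0.81 in the 8 deeper and 0.86 in the 8 shallower pools), 0.60 for Cdkn2a and Cdkn2b (adjusted permutation p = 0.0291) and 0.66 for Hmga1 and Hmga2 (adjusted permutation p = 0.0198). By rank, Cdkn1a and Mdm2 passed over 16 pools (rho = 0.76, adjusted permutation p = 0.00672), whereas Cdkn2a and Cdkn2b (rho = 0.38, adjusted permutation p = 0.340) and Hmga1 and Hmga2 (rho = 0.59, adjusted permutation p = 0.0665) did not. All 3 calls by r were lost without pools 1 and 2, with a smaller r for Cdkn1a and Mdm2 and for Hmga1 and Hmga2 and about the same r for Cdkn2a and Cdkn2b, whose call was also lost without pool 13 (r = 0.56).

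Pools with more Cdkn1a in their non-cycling LMP-like cells had a smaller share of cycling LMP-like cells. Over the 14 pools r was -0.62 (permutation p = 0.0181, adjusted p = 0.123) and rho -0.75 (permutation p = 0.00274, adjusted p = 0.0274). Over all 16 pools r was -0.83 (adjusted permutation p = 0.0406), with -0.85 in the 8 deeper and -0.74 in the 8 shallower pools. Without pool 13 alone r was -0.86 and the adjusted permutation p 0.0501, and over all alternatives this p ran from 0.0109 to 0.331. The r of Cdkn2b (-0.60), Mdm2 (-0.51) and Hmga2 (-0.51) over 14 pools did not pass, with adjusted permutation p of 0.123, 0.156 and 0.156. Over all 16 pools rho passed for Cdkn2b (-0.63, adjusted permutation p = 0.0367) and Mdm2 (-0.73, adjusted permutation p = 0.0107), where their r, -0.26 and -0.61, did not. For Hmga2 r had the other sign over all 16 pools, 0.45 (adjusted permutation p = 0.141), with 0.85 in the 8 deeper and -0.40 in the 8 shallower pools. The level was measured in the non-cycling cells, which also enter the denominator of the share, and mice differ between pools.

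**Figure D5:**
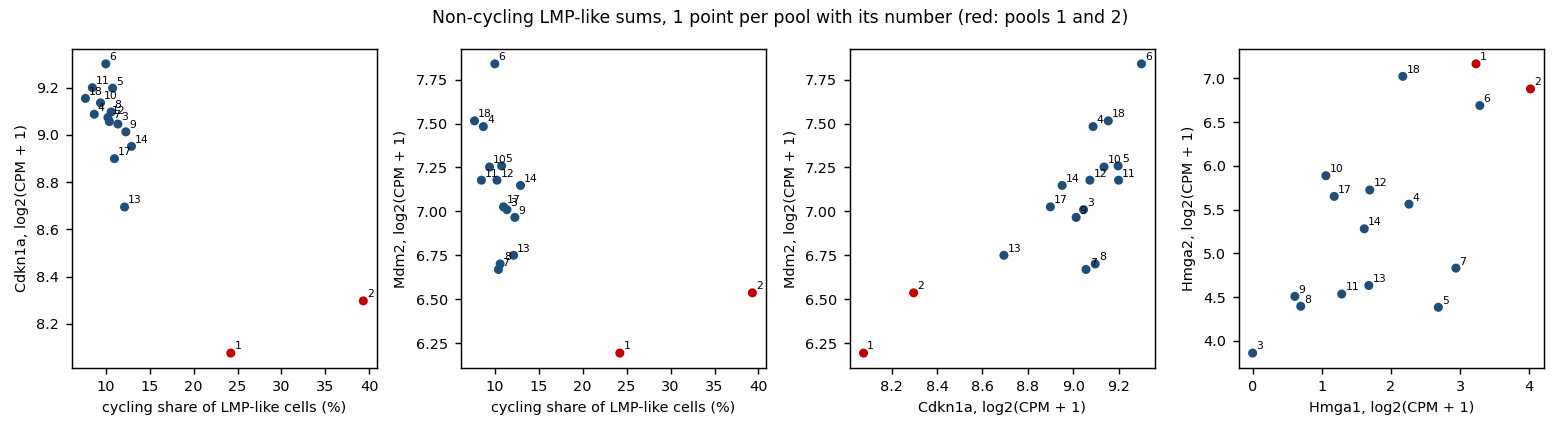
Each point is 1 pool, with the log2 level of members in non-cycling LMP-like cells or the percent of cycling LMP-like cells on the axes, and pools 1 and 2 marked apart. The points of Cdkn1a and Mdm2 rise together (r = 0.63 over 14 pools), and the cycling share falls with Cdkn1a (r = -0.62 over 14 pools).

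Other genes of these pathways, taken from lists chosen with earlier results of these data known, were counted in the same tests. Of 29 further p53 target genes tested, 4 were higher and 21 lower in OBP-like than in LMP-like cells, among them Ppm1d, a phosphatase that dampens p53 signalling (0.65), and Phlda3, an inhibitor of Akt (-1.28), with a list median of -0.29 against -0.0048 for all genes, of which 38.2% were called higher and 39.0% lower. From OBP-like to OB1-like cells 12 were higher and 5 lower, led by Ppm1d (1.14), Gadd45a (1.14) and the death receptor Fas (1.13), a share close to the 55.1% of all genes called there. In cycling LMP-like cells, where 23.2% of all genes were called higher and 21.2% lower, 4 were higher and 13 lower, with Psrc1, a microtubule regulator, at 0.49, Dcxr at -0.92 and Trp53inp1 at -0.61.

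Among 15 further CDK inhibitors, G1 cyclins, kinases and pocket proteins, 10 were higher and 1 lower in cycling LMP-like cells, beside 23.2% and 21.2% of all genes. Ccne2, the cyclin of S-phase entry (2.44), Rbl1, encoding p107 (2.10), and the Ink4 family gene Cdkn2d (1.90) rose, whereas Ccnd2, encoding cyclin D2, fell (-1.01) as Ccnd1 did. Cdkn2d thus moved against Cdkn2a and Cdkn2b. Cdkn1c, encoding the CDK inhibitor p57, rose from LMP-like to MALP-like cells (2.68), from OBP-like to OB1-like cells (1.40) and on to Ocy-like cells (0.69), and was lower in OB2-like than in OB1-like cells (-0.97). Its list as a whole gave 7 higher and 6 lower of 15 in MALP-like, 4 and 3 of 15 in OB1-like, 2 and 6 of 14 in Ocy-like and 6 and 4 of 15 in OB2-like cells. The shares of all genes called higher and lower were, in the same order, 36.2% and 36.0%, 28.6% and 26.5%, 23.6% and 24.8%, and 30.1% and 29.6%. Of 16 regulators of p53 and the Ink4 locus tested in cycling LMP-like cells, 6 were higher, led by the checkpoint kinase gene Chek1 (2.82) and the Polycomb gene Ezh2 (2.19), and 3 were lower. Tbx2 and Tbx3, repressors of the Ink4 locus, and Twist1 were lower in MALP-like than in LMP-like cells (-1.49, -0.94 and -1.01) and in Ocy-like than in OB1-like cells (-1.35, -0.57 and -1.27). Their list did not move one way: 6 of 17 were higher and 4 lower in MALP-like cells, Id1 (1.48) and Ets1 (1.43) among the higher, beside 36.2% and 36.0% of all genes. In Ocy-like cells 5 of 14 were higher, Id1 (1.49) among them, and 4 lower, beside 23.6% and 24.8% of all genes.

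Of 8 further high-mobility-group and let-7 axis genes tested in cycling LMP-like cells, 5 were higher and 2 lower, beside 23.2% and 21.2% of all genes. Hmgb2 (3.48), Hmgb3 (2.57) and Hmgn2 (1.76) rose, whereas Dynap (-1.15) and Igf2bp2, an RNA-binding protein gene regulated with Hmga2 (-0.30), fell with Hmga2. As the list was chosen with earlier results known, the fall of Dynap with Hmga2 is a description only. From LMP-like to OBP-like cells 6 of 9 fell, Hmgb2 among them (-1.18), beside 39.0% of all genes called lower. The senescence-linked list gave 2 higher and 3 lower of 11 in cycling LMP-like cells, a share close to the 44.4% of all genes called: the lamin gene Lmnb1 rose (3.86) and Igfbp5 fell (-1.10). Between LMP-like and OBP-like cells 8 of 12 were lower and 2 higher, beside 39.0% and 38.2% of all genes, with Igfbp5 (-4.64) and the chemokine gene Ccl7 (-3.36) among the lower. From OBP-like to OB1-like cells the list went the other way, with 7 of 11 higher and 0 lower, beside 28.6% and 26.5% of all genes.

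For each member the 3 genes of most similar level were taken over 94 sums of a pool and a mesenchymal gate, by Pearson correlation of log2 CPM, as a description with no test. These sums share pools and gates. Cdkn1a was most like Irx5 (r = 0.84), Gchfr and Inpp4a, Cdkn2b most like Timp2 (0.89), Trp53 most like Pa2g4 (0.96), Apex1 and Set, and Ccng1 most like Pqlc3 and the p53 target Zmat3 (0.91 each). Cdkn2a was most like its neighbour Cdkn2b (0.67), and Hmga1 most like its copy Hmga1b (0.88) and Hmga2 (0.74). Hmga2 was most like Axl (0.89), Gdf6 and Etv4, Ccnd1 most like Srpx2 (0.83), Mdm2 most like Rhbdf2 and Plk2 (0.64 each), and Gdf15 most like Kif21b (0.77). Cdkn1a and Trp53 ran against each other over these sums (r = -0.60).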

How the data were processed

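The authors deposited UMI counts per gene and cell barcode, made from 3′ droplet libraries with Cell Ranger 5.0.0 on mm10 per the submitters' processing notes, with the annotation release not given in the sources used here. Each of 16 pools was sequenced in 2 runs of the same droplets, which shared 98.2% to 99.8% of barcodes in 15 pools and 84.5% in pool 13, and the second run served as an alternative. Pool totals in the first run were 53990642 to 100777353 counts. Cells with 400 to 6200 genes, at most 10% mitochondrial, 20% Rpl and 15% Rps counts, and at least 2000 UMIs were kept. Cells with at least 2 Xist and 2 Y-linked UMIs were removed as doublets, which leaves doublets of 1 sex. Cells were gated by marker scores (best score at least 0.5, margin 0.25, at least 3 markers), with limits on collagen and leukocyte UMIs that kept stromal and leukocyte gates apart, and 7098 cells lay near the margin.

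Counts were summed per pool and gate (at least 20 cells) and tested with edgeR 4.0.16 in R 4.3.3 by the quasi-likelihood test with TMM scaling, the pool as a block and Benjamini-Hochberg adjustment over all genes, at a threshold of 0.05. Sums of the same pool deviated together, with a lowest correlation of 0.107 and medians of 0.24 to 0.51 over the comparisons. The pairing rests on the pool: sums of 1 pool come from the same library and the same pooled mice. Shares of cells were compared after thinning to 4000 UMIs. Correlations over pools used log2 of TMM-scaled CPM with 1 added and 100000 permutations (scipy 1.17.1), and the likeness of genes over sums used log2 CPM with 10 added. Counts were also simulated with a log2 change of 1 in the changed genes and no difference between pools other than depth. On these the test recovered 98.5% of 195 changed genes among 10745 for the cycling LMP-like comparison and 84.8% of 197 among 9369 for the macrophage-like interaction. Of the genes called there, 5.88% and 6.70% were false. Smaller changes, such as many reported here, were not simulated.

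The members and gene lists were chosen with earlier results of these data known, and the score limits of the gates were set after member levels had been seen. Named were all members in every comparison, up to 3 genes per list and direction with the largest change among those past the threshold, and the 3 genes most like each member; from these the text gives examples. Alternatives were DESeq2 1.42.0, no filter on low counts, thinned cells, a stricter gate margin, doublets kept, limits placed on UMIs instead of genes per cell, the second run, no replicate block, cycling from 1 UMI and each pool left out. UMI totals in place of TMM, no gate margin and omission of pools 1 and 2 were added after the data had been seen. Cells in no gate and small gates were left out of the tests.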

Additional observations from a re-analysis of the deposited data

Results flagged for a closer look

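Within 40 groups of 4 to 8 pools, 7 held a pool far from the others, where chance alone gives about 1 in 20 groups. The groups share pools and cells and several rest on few UMIs, so no excess is read from this count. In cycling OBP-like sums, pool 18 stood out for Cdkn2b (0.270 UMIs per 10,000, from 24 UMIs) and Hmga2 (0.180, from 16 UMIs). Pool 2 stood out for Hmga1 (0.0283), which is 3 UMIs against 0 in the 7 other pools. In cycling MALP-like sums, pool 1 stood out for Hmga2 (0.677, from 45 UMIs). Among the 4 pools with at least 20 monocyte-like cells, pool 9 stood out for Cdkn2b (0.171, from 6 UMIs), pool 8 for Gdf15 (8.33, from 651) and pool 18 for Ccnd1 (0.982, from 210). Pool 8 also held the highest macrophage-like Gdf15 level, 12.2.

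The difference between cycling and non-cycling cells itself differed between gates for the members below, as tested by the interaction in edgeR. Against LMP-like cells, the cycling effect on Ccnd1 was higher by 0.55 in OBP-like, 1.23 in MALP-like and 0.85 in macrophage-like cells on the log2 scale. That on Cdkn2a was higher by 0.74 in OBP-like and 0.81 in MALP-like cells. In macrophage-like cells the effect on Gdf15 stood at -0.95. The Cdkn2b value there was 1.06, for a gene that was too low to be tested in macrophage-like cells alone (44 UMIs in cycling cells), and no difference is read from it. The OBP-like calls, both of them, ended without the replicate block, in thinned cells, in the second run, at a stricter gate margin, without pools 1 and 2 and with cycling from 1 UMI. Both MALP-like calls ended at the stricter margin. The macrophage-like calls of Ccnd1 and Gdf15 ended without the block and with cycling from 1 UMI, and that of Gdf15 also with DESeq2, in thinned cells, with doublets kept, with UMI totals and without pools 1 and 2. Mean TMM-scaled levels of Ccnd1 over the 7 pools of the MALP-like test went from 1.04 UMIs per 10,000 in non-cycling to 1.92 in cycling MALP-like cells, and from 8.34 to 6.55 in LMP-like cells.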

How the results depend on the processing

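Counts below are of members past the threshold, with the reported count in parentheses. With the limits placed on UMIs per cell they were 2 (8) for OBP-like and 5 (9) for MALP-like against LMP-like, 1 (6) for OB1-like against OBP-like, and 1 (3) and 2 (7) for OB2-like and Ocy-like against OB1-like; far fewer cells passed, and the cycling comparisons could not be fitted. Part of this drop came from members no longer tested under the UMI limits. Of the member values still tested there, 11 lost their call, 1 gained a call and 26 stayed on the same side of the threshold. With UMI totals OB2-like against OB1-like gave 6, Mdm2 turned to -0.32 in OBP-like and Cdkn1a to 0.0224 in MALP-like against LMP-like. In thinned cells cycling OBP-like gave 1 (4) and cycling MALP-like 2 (4), and the interactions 0 (2; 4 at unadjusted p under 0.05) for OBP-like and 1 (2) for MALP-like. Without the count filter cycling MALP-like gave 7, and the macrophage-like interaction 5 (3), as it did at a stricter margin and with doublets kept. The second run gave 2 for cycling OBP-like and 0 for its interaction (5 unadjusted). The stricter margin gave 0 for the OBP-like and MALP-like interactions (2 and 5 unadjusted). Without pools 1 and 2 the OBP-like and macrophage-like interactions gave 0 (4 unadjusted) and 1. Cycling from 1 UMI gave 0, 1 and 0 for the OBP-like, MALP-like and macrophage-like interactions (3 and 6 unadjusted for the zeros). The tests were edgeR's throughout, and the cause was not tested.

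Without the replicate block, edgeR called 2 members for OB1-like against OBP-like (6), 3 for Ocy-like (7), 4 for cycling LMP-like (8), 0 for cycling OBP-like (4; 2 unadjusted), 2 for cycling MALP-like (4), 0 for cycling macrophage-like (3; 3 unadjusted), and 0, 1 and 0 for the interactions in OBP-like, MALP-like and macrophage-like cells (2, 2 and 3; 2 and 5 unadjusted for the zeros).

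With each pool left out, the members called ranged from 8 to 9 for OBP-like, 9 to 10 for MALP-like, 5 to 7 for OB1-like, 3 to 4 for OB2-like, 7 to 7 for Ocy-like and 8 to 9 for macrophage-like cells. They ranged from 8 to 9, 3 to 4, 4 to 5 and 2 to 3 for cycling LMP-like, OBP-like, MALP-like and macrophage-like cells, and from 0 to 1, 1 to 2 and 2 to 5 for the interactions in OBP-like, MALP-like and macrophage-like cells.

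Counts of all genes called moved most under the UMI limits, to 1012 (9183) for OBP-like, 1776 (8510) for MALP-like, 96 (6023) for OB1-like, 143 (6443) for OB2-like, 184 (4714) for Ocy-like and 3623 (9365) for macrophage-like cells. Thinning gave 3188, 3643 and 2343 for OB1-like, OB2-like and Ocy-like, 2145 (4801), 475 (1770), 1215 (2886) and 403 (1383) for cycling LMP-like, OBP-like, MALP-like and macrophage-like cells, and 43 (136), 63 (238) and 114 (444) for the interactions. Without the block the counts were 3111 for Ocy-like, 3170, 839 and 550 for cycling LMP-like, OBP-like and macrophage-like, and 11, 66 and 147 for the interactions. The stricter margin gave 982 for cycling OBP-like, 16 and 124 for the OBP-like and MALP-like interactions, and no margin 373 and 457. Omission of pools 1 and 2 gave 921 for cycling macrophage-like and 288 for its interaction. The interactions in OBP-like, MALP-like and macrophage-like cells gave 615, 498 and 261 without the filter, 558, 124 and 212 with cycling from 1 UMI, and 80 to 152, 143 to 246 and 217 to 490 with single pools left out. DESeq2 gave 250 and doublets kept 241 for the OBP-like interaction, and UMI totals 268 for the macrophage-like one.

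Of the 7 relations between members over pools, 3 passed by Pearson's r, against 4 over all LMP-like cells, 3 thinned, 2 in the second run, 2 without pool 13, 0 without pools 1 and 2 (2 at unadjusted permutation p under 0.05), 4 in the 8 deeper and 1 in the 8 shallower pools. Of the 10 with the cycling share 1 passed by r, against 4, 3, 3, 0, 0, 1 and 0 in the same order, with 2 at unadjusted permutation p under 0.05 without pools 1 and 2. By rank 3 of these passed over 16 pools (Cdkn1a, Mdm2 and Cdkn2b) and 1 without pools 1 and 2 (Cdkn1a, adjusted permutation p = 0.0274). Shares of cells moved beyond their spread between pools in 64 of 70 values without thinning and in 44 at 2000 UMIs. Of 116 member values, DESeq2 left 111 on the same side of the threshold, the second run 109 and UMI totals 95.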

Other observations

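In single non-cycling LMP-like cells, 6099 in all after thinning to 4000 UMIs, pairs of members were counted together and set against the number expected within pools if they were independent. Of the 45 pairs 36 lay above expectation, with a median of 1.08 times over all pairs, so the pairs given here are examples chosen after their values were seen. Cdkn2a and Cdkn2b were found together in 763 cells against 622 expected (1.23 times, above expectation in 16 of 16 pools). Hmga2 was found with Cdkn2b in 287 cells against 216 (1.33 times, 13 of 16 pools) and with Cdkn2a in 355 against 276 (1.29 times, 14 of 16 pools). Hmga2 was also found with Ccnd1 more often than expected (1.18 times, 15 of 16 pools), as Mdm2 was with Ccng1 (1.12 times, 15 of 16 pools) and with Cdkn1a (1.08 times, 15 of 16 pools). Trp53 and Mdm2 stood at 0.963 times (above expectation in 5 of 16 pools). Hmga1 and Hmga2 were found together in 34 cells against 14.3, where Hmga1 reads may come from Hmga1b.

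Among leukocyte gates Cdkn1a, which encodes p21, had a median of 5.92 UMIs per 10,000 in macrophage-like, 3.80 in osteoclast-like, 3.44 in monocyte-like, 1.93 in T-cell-like and 1.29 in granulocyte-like sums. Gdf15 had 5.10 in macrophage-like, 0.936 in osteoclast-like and 0.141 in granulocyte-like sums. T-cell-like sums, from the 4 pools with at least 20 such cells, held 0.917 of Trp53, above the LMP-like median of 0.726. No test was run on these levels.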
